A study of Mus musculus with 28 samples.

Results

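The protocadherin genes described here were all genes whose symbol starts with Pcdh, taken from the tables of gene counts for the frontal cortex of male C57Bl/6 mice. There were 68 of them among 15097 genes in the table of the chronic social stress cohort, and the same 68 among 15054 genes in that of the type 2 diabetes cohort. Of these, 57 lie in the alpha, beta and gamma clusters on chromosome 18 (14 alpha, 21 beta and 22 gamma genes), and 11 are non-clustered genes at other places. The annotation holds 2 further protocadherin genes, Pcdh12 and Pcdhb1, which were not among the listed genes. All 68 passed edgeR's filter on low counts, but each listed gene had reached about 1 CPM (count per M counts of the library) in at least 8 CSS-cohort or 6 T2D-cohort libraries, so lower genes are not seen here.

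The series asked how sensitive the cortex is to social and to metabolic stress, with 1 library from the cortex of 1 hemisphere of each mouse. Chronic social stress (CSS, 8 mice) meant 7 weeks of isolation, with daily confrontations with other animals during the final 20 days. It was set against 8 control mice (CSS_control), and this cohort was 21 weeks of age. The type 2 diabetes model (T2D, 6 mice) combined 75 mg/kg streptozotocin, which damages the insulin-producing cells of the pancreas, with 21 weeks on a high-fat diet (43.2% of its energy from fat). It was set against 6 controls (T2D_control), and this cohort was 30 or 31 weeks of age. How the control mice were housed and fed beyond the words control conditions is not given in the sources used here. The RNA is that of all cells of the dissected cortex, so fewer cells of a type and less RNA per cell cannot be told apart.

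Protocadherins are the largest group of the cadherin superfamily, calcium-dependent adhesion proteins that span the cell membrane and are abundant in the brain. In the clusters each gene starts from its own promoter and large first exon. In the alpha and gamma clusters this exon is spliced to a set of constant exons that all members of the cluster share, while beta genes consist of a single large exon. A neuron uses a random few of the alternate isoforms, and matching sets of isoforms on the branches of a neuron let it recognise and avoid itself. The C-type isoforms, Pcdhac1, Pcdhac2, Pcdhgc3, Pcdhgc4 and Pcdhgc5, are used more uniformly from cell to cell. Non-clustered protocadherins bind cells of the same kind to each other and pattern axon bundles, layers and synapses.

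Sequences upstream of the start site are shown for Pcdh8, Pcdh17 and Pcdh19, non-clustered genes whose change in the CSS cohort had an unadjusted p under 0.05. They are the 250 bases before the first start listed by RefSeq (GRCm38.p6), written 5′ to 3′ on the strand of the gene. Capitals mark a TATA box (TATAAA) or a GC box (GGGCGG) on either strand.
Pcdh8, minus strand, chr14:79771313-79771562: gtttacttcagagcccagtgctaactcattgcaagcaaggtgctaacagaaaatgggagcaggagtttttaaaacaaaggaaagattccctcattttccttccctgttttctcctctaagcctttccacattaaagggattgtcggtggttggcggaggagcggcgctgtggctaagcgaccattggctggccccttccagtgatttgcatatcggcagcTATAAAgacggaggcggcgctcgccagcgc
Pcdh17, plus strand, chr14:84443313-84443562: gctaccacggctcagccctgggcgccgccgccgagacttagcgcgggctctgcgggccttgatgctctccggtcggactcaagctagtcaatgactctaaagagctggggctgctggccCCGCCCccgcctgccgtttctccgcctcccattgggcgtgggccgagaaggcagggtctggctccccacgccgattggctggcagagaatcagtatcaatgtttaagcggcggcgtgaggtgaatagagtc
Pcdh19, minus strand, chrX:133688994-133689243: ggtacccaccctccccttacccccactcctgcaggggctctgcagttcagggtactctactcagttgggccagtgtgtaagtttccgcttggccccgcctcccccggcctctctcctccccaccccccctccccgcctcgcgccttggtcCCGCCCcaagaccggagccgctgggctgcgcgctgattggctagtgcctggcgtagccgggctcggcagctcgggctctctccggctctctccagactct

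The TATA box of Pcdh8 began 30 bases and the GC box of Pcdh19 100 bases before the start. Of the 9 protocadherin genes whose promoter was matched by symbol, Pcdh10, Pcdh17, Pcdh18 and Pcdh19 held a GC box and Pcdh8 and Pcdh15 a TATA box in the window from 250 bases before to 50 after the start. Among 32851 promoter windows of this length, 35.7% held a GC box and 13.6% a TATA box. The median GC content of the 9 windows was 62.3%, beside 52.7% over all windows. A match describes the letters only.

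By the GENCODE M21 annotation of GRCm38/mm10, all clustered genes lie on the plus strand of chromosome 18, alpha from 36930184 to 37187661, beta from 37294812 to 37524479 and gamma from 37661793 to 37841873. Of the non-clustered genes described most closely, Pcdh19 lies on chromosome X from 133582860 to 133688987, and on chromosome 14 Pcdh8 lies from 79766775 to 79771312 and Pcdh17 from 84443563 to 84539002. The constant exons shared by all 14 alpha genes hold 2860 bases, and those shared by all 22 gamma genes 2116 bases. Bases shared with another gene on the same strand made up 38.9% to 91.4% of the exon length of an alpha gene, with Pcdha4 the highest, and 31.5% to 66.8% of that of a gamma gene. Reads from those bases cannot be assigned to a single isoform by their sequence. The estimated counts of alpha and gamma genes are therefore uncertain as single values and are not independent of each other. Beta genes shared no exon bases with each other except Pcdhb21 and Pcdhb22, with 455 bases, and the non-clustered genes shared none. Pcdha11 is the symbol of 2 listed identifiers, ENSMUSG00000007440 and ENSMUSG00000102206, which were kept apart. Whether strand was used in counting is not given in the sources used here, and genes on the opposite strand overlap part of some members. Such overlap was largest for Pcdhb12 (63.5% of its exon bases), Pcdhga10 (55.2%), Pcdha11 ENSMUSG00000102206 (44.3%) and Pcdhga11 (29.0%). It covered 28.4% of the exon bases of Pcdhgc3, 21.1% of Pcdh7, 9.95% of Pcdha12, 9.61% of Pcdh8 and 0.545% of Pcdh19. It covered none of Pcdhgb2, Pcdhac1, Pcdhgc4 or Pcdh17.

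Totals of listed genes ranged from 12.1 to 37.5 M estimated counts per library, and the RNA integrity number (RIN) from 8.50 to 10.0. Protocadherin genes together took 0.255 ± 0.0108% of the counts in CSS, 0.243 ± 0.00961% in CSS_control, 0.255 ± 0.0108% in T2D and 0.248 ± 0.0153% in T2D_control (SD, n = 8, 8, 6 and 6). All 13 markers of excitatory neurons were listed and above 0 in every library, with summed levels of 1525 to 2636 CPM, as were all 12 markers of striatal projection neurons, whose sums ranged from 358 to 2419 CPM. The titles of the CSS cohort carry a code number that the sources used here do not explain, and the groups differed in it. Of CSS libraries 1, 1, 3 and 3 had the numbers 1 to 4, and of their controls 4, 3, 1 and 0. With this number in the model as a factor, edgeR called 2 genes in place of 683.

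Levels are compared between genes as CPM per kb of annotated exon. The non-clustered genes held the 4 highest levels in CSS_control. Pcdh9, an adhesion protein of neurons, stood at 43.4 ± 4.78 CPM per kb (SD, n = 8), and Pcdh7, also named NF-protocadherin, at 26.2 ± 2.80. Pcdh10, a partner of the WAVE complex that remodels actin, stood at 20.4 ± 2.37 and Pcdh1, which is also made in epithelia and vessels, at 19.7 ± 1.65. Of neighbours in this order, Pcdh9 and Pcdh7, and Pcdh7 and Pcdh10, differed by more than the larger of their SDs, while Pcdh10 and Pcdh1 did not. Over all 68 genes, 59 of the 67 neighbouring pairs differed by less than the larger SD. The other 8 pairs included Pcdh1 above Pcdhgc5, Pcdhgc5 above Pcdhgc3, and Pcdhac2 above Pcdhgb6. This order depends on the annotated exon length, which is 6783 bases for Pcdh9 and 15888 for Pcdh10. In CPM not divided by length, CSS_control libraries had 256 to 358 for Pcdh9 and 290 to 386 for Pcdh10.

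Pcdh17, which helps to assemble synapses between cortex and basal ganglia, was the next non-clustered gene with 12.4 ± 1.39 CPM per kb in CSS_control. The remaining non-clustered genes were at 5.07 ± 0.857 CPM per kb or less. Pcdh20 was at that value, Pcdh19, which causes epilepsy in people when mutated, at 4.73 ± 0.569, and X-linked Pcdh11x at 3.83 ± 0.406. Pcdh8, or arcadlin, which is induced by neuronal activity and removes N-cadherin from synapses, was at 3.73 ± 0.784. Pcdh15, a part of the tip links of hair cells, stood at 1.85 ± 0.337 and Pcdh18, which binds the adaptor Dab1, at 1.84 ± 0.321. Both were the lowest of the 11 and differed by less than their SDs.

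Among clustered genes, 3 C-type isoforms had the highest levels. Pcdhgc5 was at 15.8 ± 1.98 CPM per kb in CSS_control, Pcdhgc3 at 12.9 ± 0.325 and Pcdhac2, which guides the tiling of serotonergic axons, at 10.7 ± 0.652. Pcdhgc4, which neurons need to survive, was at 2.83 ± 0.356 and Pcdhac1 at 1.583 ± 0.1998, both within the range of the alternate isoforms of their clusters. The highest alternate isoforms were Pcdhgb6 with 6.51 ± 0.477 CPM per kb in the gamma cluster, Pcdhb17 with 5.37 ± 0.516 in the beta cluster and Pcdha12 with 2.24 ± 0.476 in the alpha cluster. The lowest were Pcdhgb8, annotated as a polymorphic pseudogene, with 1.18 ± 0.254, Pcdhb3 with 1.03 ± 0.136 and Pcdha1 with 0.450 ± 0.146. The highest level was 23.8 times the lowest within alpha, 5.22 times within beta and 13.4 times within gamma.

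Levels of alternate isoforms were set against their place along the chromosome, and alpha and beta genes farther from the 5′ end of their cluster tended to have higher levels. Across the 12 alternate alpha genes, Spearman's rho between place from the 5′ end and level per kb was 0.71 in CSS_control, 0.72 in CSS, 0.77 in T2D_control and 0.79 in T2D. Across the 21 beta genes it was 0.72, 0.68, 0.72 and 0.69, and across the 19 alternate gamma genes 0.18, 0.24, 0.15 and 0.24. These values describe genes measured in the same libraries, with constant exons in common in alpha and gamma, and genes are not independent replicates. The median level of the first 6 alternate alpha genes was 1.06 CPM per kb in CSS_control and that of the last 6 was 1.72. Pcdha1, Pcdha2 and Pcdha3 stand first and had the lowest levels of the cluster, and Pcdha12, the last, had the highest of the alternate genes.

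**Figure D1:**
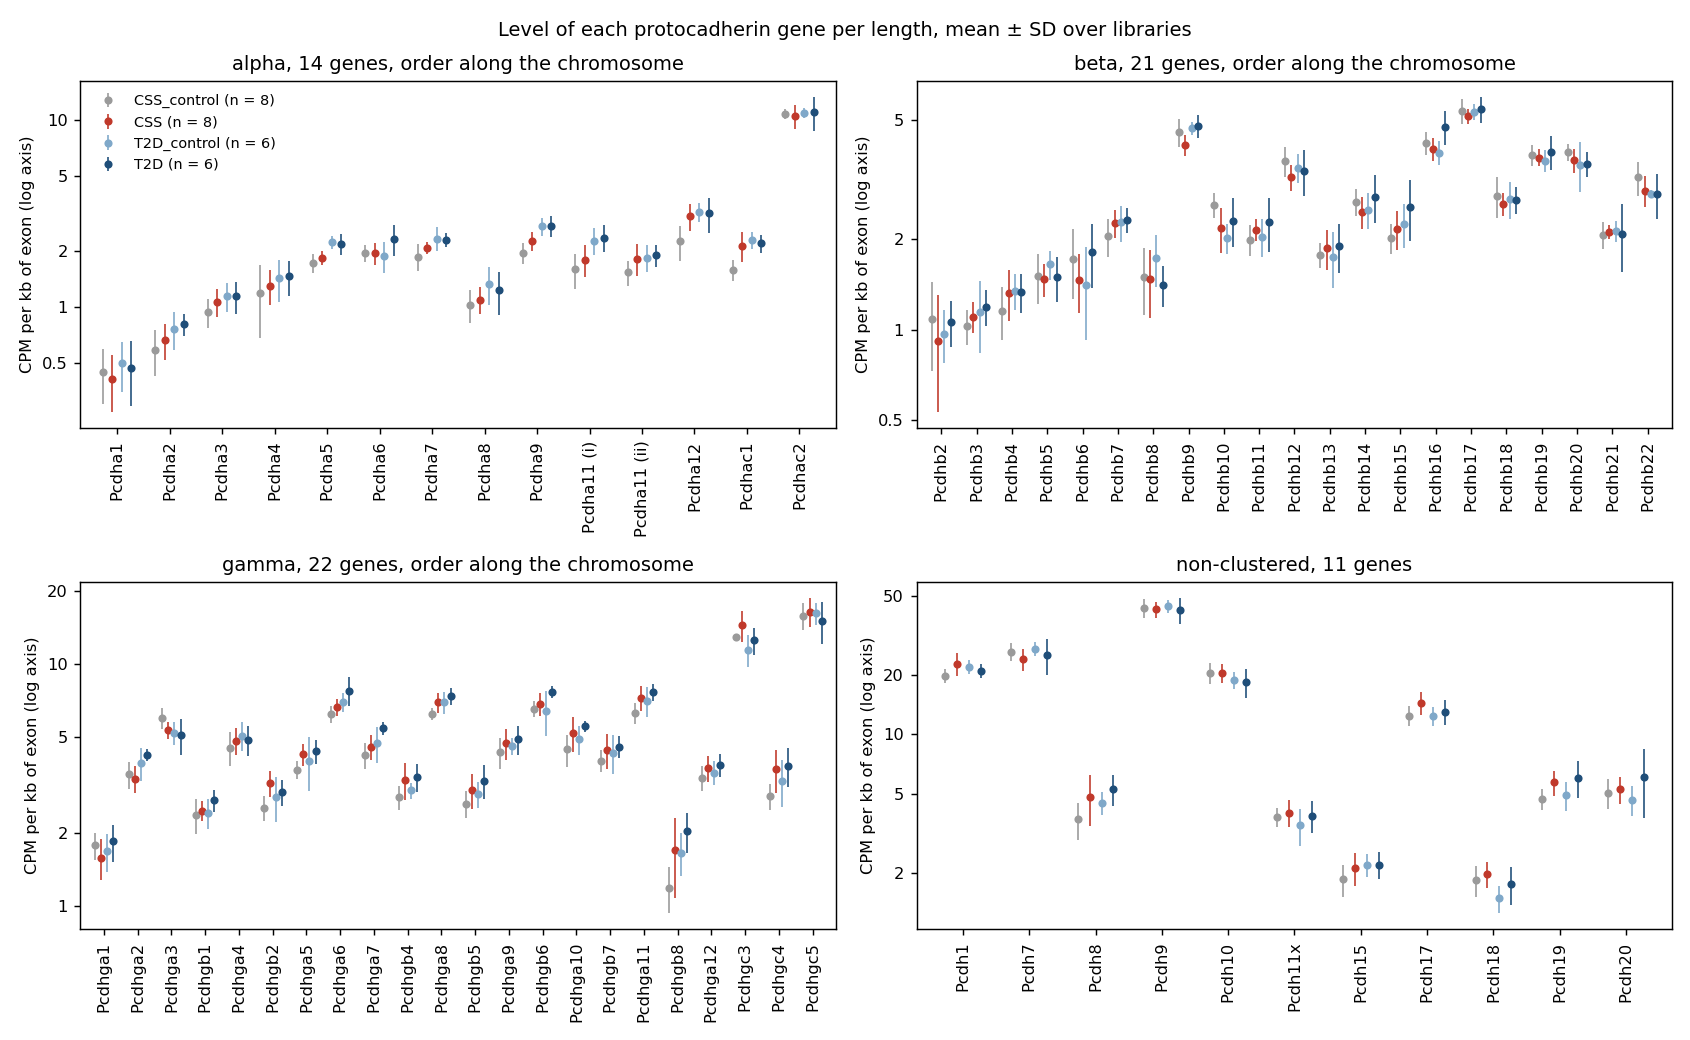
Level of the 68 protocadherin genes in CPM per kb of exon on a log axis, as mean ± SD of each group (points with bars, n = 8, 8, 6 and 6), with clustered genes in their order along the chromosome; (i) and (ii) are the Pcdha11 identifiers in the order named above. Pcdh9 stood at 43.4 CPM per kb in CSS_control and Pcdha1 at 0.450, and the C-type genes Pcdhac2, Pcdhgc3 and Pcdhgc5 stood above the other genes of their clusters.

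The share of each member in the counts of its cluster was computed in every library. Pcdhac2 held the largest share of alpha counts in 28 of 28 libraries, with a mean of 34.6% and a range of 29.7% to 41.6%. Pcdhgc5 held the largest share of gamma counts in 28 of 28, with a mean of 19.5% and a range of 14.8% to 24.8%. In beta, Pcdhb19 held the largest share in 22 of 28 libraries, with a mean of 11.2%, and Pcdhb17 in 4. Shares were not divided by length, so they follow exon length as well as use. The share of the C-type isoforms together was 40.5% of alpha and 33.8% of gamma counts over all libraries.

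The largest difference in share between CSS and its controls was that of Pcdhac2, which held 34.1% of alpha counts in CSS and 38.1% in CSS_control. In gamma it was Pcdhga3, with 3.91% and 4.76%, and in beta Pcdhb22, with 8.17% and 8.69%. In the T2D cohort the largest were Pcdhgc5 with 17.5% in T2D and 20.1% in T2D_control, Pcdhb16 with 9.88% and 8.55%, and Pcdha6 with 6.25% and 5.13%. Shares were described and not tested.

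The comparison of CSS with CSS_control asked which genes differed between stressed and control cortex. A total of 2 of the 68 protocadherin genes rose, 1 gamma and 1 alpha gene, and none fell. That is 2.94% of the members, beside 4.52% of all 15097 genes (683, with 2.11% higher and 2.42% lower), in edgeR's quasi-likelihood test with p-values adjusted by Benjamini-Hochberg across the whole table and called under 0.05. By level per kb in CSS_control they ranked 39 (the gamma gene) and 56 (the alpha gene) of the 68. At an unadjusted p under 0.05 there were 18 members (26.5%, 16 higher and 2 lower), beside 21.5% of all genes (11% higher and 10.5% lower). The groups overlapped in all 68 members, while they did not overlap in 92 of all genes (0.609%).

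Pcdhgb2, an alternate gamma isoform (ENSMUSG00000102748, chromosome 18, 37689828 to 37841873), had a lowest, median and highest level of 10.7, 11.7 and 14.6 CPM in CSS_control and of 13.3, 15.5 and 19.4 CPM in CSS. The highest 5 CSS libraries lay above every control, and the groups overlapped between 13.3 and 14.6 CPM. The mean rose from 12.4 ± 1.46 CPM in controls to 15.7 ± 1.90 in CSS (SD, n = 8 each), which is 1.27-fold or 0.34 ± 0.09 log2 units (SE, adjusted p = 0.0322, higher than the control mean in 8 of 8 libraries). Among libraries with code number 1 its level was 16.7 CPM in the CSS library and 11.6 to 14.6 in 4 controls. With number 2 it was 14.2 beside 10.7 to 11.3 in 3 controls, and with number 3 it was 14.2 to 19.4 in 3 CSS libraries beside 13.7 in the control. Each CSS library was thus above the controls of its own number, and the 3 CSS libraries of number 4 had no such control. With the number as a factor the log2 change was 0.33 and the adjusted p 0.196.

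Pcdhac1, a C-type alpha isoform (ENSMUSG00000103255, chromosome 18, 37090013 to 37187657), had a lowest, median and highest level of 7.18, 8.30 and 10.7 CPM in CSS_control and of 8.87, 10.98 and 14.2 CPM in CSS. CSS replicates 1, 2 and 5 were the highest, at 13.6 to 14.2 CPM, and 4 CSS libraries were above every control. The mean rose from 8.58 ± 1.08 CPM in controls to 11.5 ± 2.11 in CSS (SD, n = 8 each), which is 1.34-fold or 0.42 ± 0.11 log2 units (SE, adjusted p = 0.0370, higher than the control mean in 8 of 8 libraries). Within code number 1 the levels were 13.8 CPM in CSS and 7.18 to 10.7 in controls, and within number 2 they were 13.6 and 7.70 to 9.04. Within number 3 the 3 CSS libraries, at 8.87 to 14.2, lay on both sides of the control at 9.33. With the number as a factor the log2 change was 0.55 and the adjusted p 0.129.

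The calls of both genes depended on single libraries. Pcdhgb2 was no longer called without CSS replicate 5 or 6 or CSS_control replicate 2, 3, 5 or 7, with adjusted p-values of up to 0.0723. Pcdhac1 was not called without CSS replicate 1, 2, 5 or 6 or CSS_control replicate 1, 2, 3, 5 or 7, with adjusted p-values of up to 0.0756. The direction held in every such fit, with log2 changes from 0.29 to 0.38 for Pcdhgb2 and from 0.37 to 0.47 for Pcdhac1.

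Of the 14 alpha genes, 11 had a positive fitted change (median log2 change 0.17), and 1, Pcdhac1, passed the test. Pcdha12, the last of the alternate alpha genes, had a lowest, median and highest level of 7.45, 12.7 and 15.0 CPM in CSS_control and of 12.5, 16.1 and 19.6 CPM in CSS. Its log2 change was 0.44 ± 0.13 (adjusted p = 0.0573, higher in 8 of 8 libraries), just outside the threshold, with DESeq2 at 0.0200. Downstream of Pcdha12 and Pcdhac1, Pcdhac2, the alpha gene of highest level per kb, had a log2 change of -0.03 ± 0.08 (adjusted p = 0.835), with 63.1 ± 3.84 CPM in CSS_control and 61.7 ± 9.06 in CSS. Thus the 3 genes nearest the 3′ end of the alpha cluster had fitted values of 0.44, 0.42 and -0.03. Pcdha9 had 0.21 ± 0.09 (adjusted p = 0.179), Pcdha6 0.00 ± 0.09 and Pcdha1 -0.11 ± 0.22.

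Of the 22 gamma genes, 19 had a positive change (median 0.13) and 1 passed. At an unadjusted p under 0.05 there were 10, 9 higher and 1 lower, beside 21.5% of all genes. Gamma genes share constant exons, so these 10 are not independent results. Gm26672, on the strand opposite to parts of Pcdhga10, Pcdhgb7, Pcdhga11 and Pcdhga12, had a log2 change of 0.50 ± 0.20 (SE, edgeR adjusted p = 0.143). Gm10545, opposite to parts of Pcdha12 and Pcdha11 ENSMUSG00000102206, had -0.27 ± 0.24 (adjusted p = 0.559). The part of these genes in the member values was not tested. Pcdhgc4 had a lowest, median and highest level of 12.5, 15.8 and 18.5 CPM in CSS_control and of 14.9, 21.2 and 26.7 CPM in CSS. Its highest 5 CSS libraries were above every control, and its log2 change was 0.37 ± 0.11 (adjusted p = 0.0655, with DESeq2 0.0306). Pcdhgc3, which binds Axin1 and promotes dendrite growth, had 0.16 ± 0.07 (adjusted p = 0.176) and Pcdhgc5, found at inhibitory synapses, 0.06 ± 0.09 (adjusted p = 0.746). The levels of Pcdhgc3 spread from 65.6 to 105 CPM in CSS, beyond the controls at 67.8 to 73.2 on both sides, and its log2 change was 0.09 without CSS replicate 5, which held the 105 CPM. Pcdhgb8, the lowest gamma gene and annotated as a polymorphic pseudogene, had the largest fitted change of any member, 0.51 ± 0.20 (adjusted p = 0.132). Its levels were 4.43 to 12.1 CPM in CSS and 4.01 to 7.01 in controls. Pcdhgb6 had 0.07 ± 0.07 (adjusted p = 0.587), and 0.01 without the same library. The 3 gamma genes with a negative change, Pcdhga1, Pcdhga2 and Pcdhga3, stand first in the cluster, and Pcdhga3 had the smallest p of them, with -0.17 ± 0.07 (adjusted p = 0.158).

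Of the 21 beta genes, 14 had a negative change (median -0.06, beside 48.7% negative over all genes), and none passed in edgeR or in DESeq2. At an unadjusted p under 0.05 there was 1 beta gene, beside 21.5% of all genes. That was Pcdhb10, at 6.34, 7.57 and 8.41 CPM in CSS_control and 4.77, 6.40 and 8.24 in CSS (lowest, median and highest), with -0.26 ± 0.11 (adjusted p = 0.167). The 4 lowest CSS libraries were below every control. The most abundant beta genes per kb, Pcdhb17, Pcdhb9 and Pcdhb16, had -0.06 ± 0.06, -0.14 ± 0.08 and -0.07 ± 0.07. Over all 68 members 46 (67.6%) had a positive change, beside 51.3% of all genes. The median over all genes was 0.01.

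Of the 11 non-clustered genes, 9 had a positive change (median 0.11) and none passed. At an unadjusted p under 0.05 there were 4, all of them higher, beside 11% higher over all genes. Pcdh19 was lowest in adjusted p, with 41.6, 49.7 and 61.6 CPM in CSS_control and 46.3, 59.2 and 72.0 in CSS. Its log2 change was 0.27 ± 0.09 (adjusted p = 0.0772, with DESeq2 0.0422), and CSS_control replicate 1, at 61.6 CPM, lay above the median of CSS. Pcdh1 had 0.20 ± 0.07 (adjusted p = 0.124) and Pcdh17 0.21 ± 0.08 (adjusted p = 0.127), each higher than the control mean in 7 of 8 libraries. Pcdh8 had 0.37 ± 0.17 (adjusted p = 0.213), with levels of 13.9 to 30.7 CPM in CSS and 9.93 to 20.7 in controls, and 5 of 8 CSS libraries above the control mean. Among genes induced by neuronal activity, 14 of 15 had a positive change, with summed levels of 576 to 1353 CPM in CSS and 535 to 841 in controls. In edgeR 0 of 15 passed, and 2 had an unadjusted p under 0.05, both higher, beside 11% higher over all genes. In T2D, where Pcdh8 had 0.22 ± 0.12, 1 of these 15 genes had a positive change (median -0.26), with sums of 595 to 1194 CPM in T2D and 729 to 1794 in controls. Their part in the Pcdh8 values was not tested.

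The 3 non-clustered genes of highest level per kb did not pass. Pcdh9 had -0.02 ± 0.07 log2 units (95% interval -0.16 to 0.11) and Pcdh7 -0.13 ± 0.08 (-0.28 to 0.03), with adjusted p-values of 0.891 and 0.360. Pcdh10 had 0.00 ± 0.07 (-0.14 to 0.15, adjusted p = 0.983), a value whose sign changed with other scalings. The others were Pcdh15 with 0.19 ± 0.12, Pcdh18 with 0.11 ± 0.11, Pcdh11x with 0.07 ± 0.09 and Pcdh20 with 0.06 ± 0.11.

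**Figure D2:**
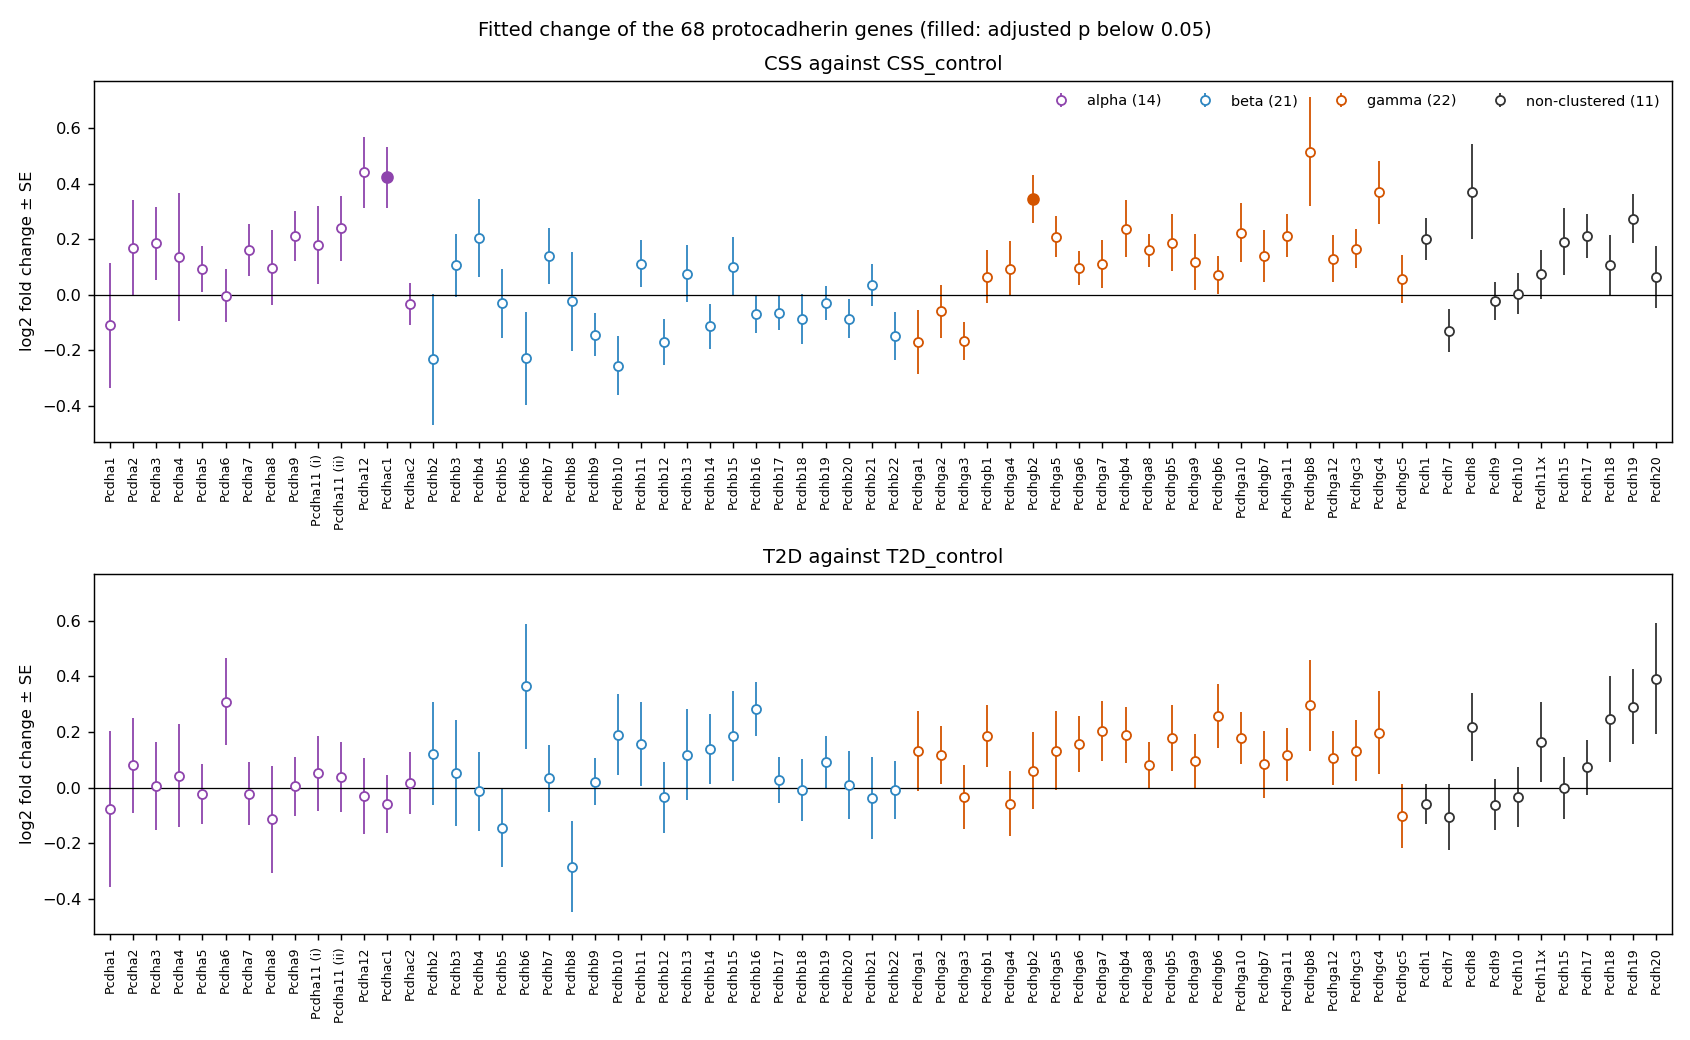
Fitted log2 fold change (points) ± SE (bars) of the 68 protocadherin genes, CSS against its controls above (n = 8 each) and T2D against its controls below (n = 6 each), coloured by class, clustered genes in their order along the chromosome. Filled points, Pcdhac1 and Pcdhgb2 in the upper panel, passed the test, and 14 of 21 beta genes lay below 0 in CSS where 11 of 14 alpha and 19 of 22 gamma genes lay above it.

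**Figure D3:**
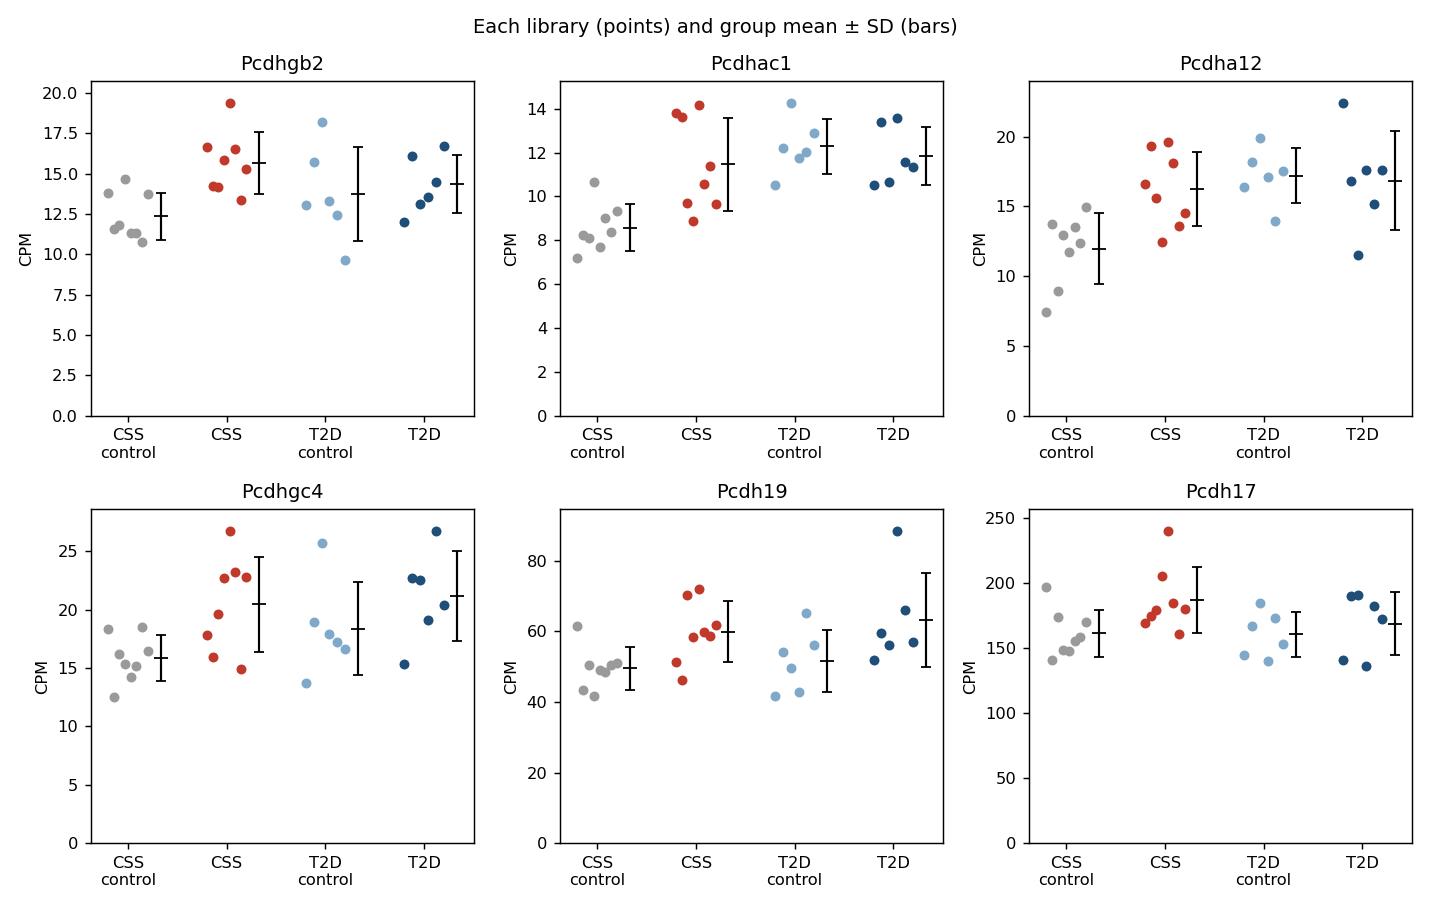
Level in CPM of 6 protocadherin genes in every library (points) with the mean ± SD of each group (bars, n = 8, 8, 6 and 6); the vertical axes start at 0. The CSS and control points overlap in each panel, and T2D and T2D_control values of Pcdhac1 and Pcdha12 reach the range of CSS.

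Markers of several cell types were compared in the same contrast. Over all genes 2.11% were called higher and 2.42% lower, and at an unadjusted p under 0.05 11% were higher and 10.5% lower. Astrocyte markers were called higher in 2 of 10 cases, with summed levels of 4326 to 5193 CPM in CSS and 3910 to 4549 in controls. Markers of oligodendrocyte precursors were called higher in 2 of 10, with sums of 422 to 524 and 395 to 449 CPM. Markers of microglia were called lower in 5 of 11, with sums of 193 to 378 and 363 to 416 CPM, and those of inhibitory neurons lower in 2 of 12, with sums of 804 to 1056 and 865 to 1127 CPM. Endothelial markers were called higher in 2 of 11 (221 to 322 and 231 to 272 CPM) and those of meningeal fibroblasts in 1 of 12 (118 to 240 and 112 to 180 CPM). The fibroblast markers had a positive change in 12 of 12 cases (median 0.51), with 7 higher at an unadjusted p under 0.05. Markers of pericytes and smooth muscle had a positive change in 7 of 10 (median 0.29). Of these, 0 were called and 3 were higher at an unadjusted p under 0.05, with sums of 179 to 274 and 178 to 243 CPM. Excitatory neuron markers were called higher in 1 of 13, and their sums were 1797 to 2636 and 1815 to 2467 CPM. Striatal projection neuron markers had a negative change in 12 of 12 cases, with 0 called in edgeR and 2 lower at an unadjusted p under 0.05, and sums of 1040 to 1710 CPM in CSS and 1159 to 2419 in controls. Oligodendrocyte markers had a positive change in 1 of 10, with 0 called and 3 lower at an unadjusted p under 0.05, and sums of 2846 to 3853 and 3104 to 4014 CPM. No listed marker of these types was at 0 in any of these libraries. The part of these differences in the protocadherin values was not tested.

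Because constant exons are shared, each table was also fitted with the alpha, beta and gamma rows replaced by their sums. In CSS_control the summed alpha cluster was at 147, 169 and 176 CPM and in CSS at 158, 174 and 204 CPM (lowest, median and highest), with a log2 change of 0.11 ± 0.06 (adjusted p = 0.255). For the beta sum the values were 232, 242 and 272 CPM in controls and 222, 231 and 255 in CSS, with -0.07 ± 0.04 (adjusted p = 0.388), and -0.04 without CSS_control replicate 4. The gamma sum was at 537, 600 and 616 CPM in controls and at 577, 637 and 758 in CSS, with 0.12 ± 0.05 (unadjusted p = 0.0282, adjusted p = 0.173). In gamma 7 of 8 CSS libraries were above every control, and the groups overlapped through the lowest CSS library. No sum passed the test.

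**Figure D4:**
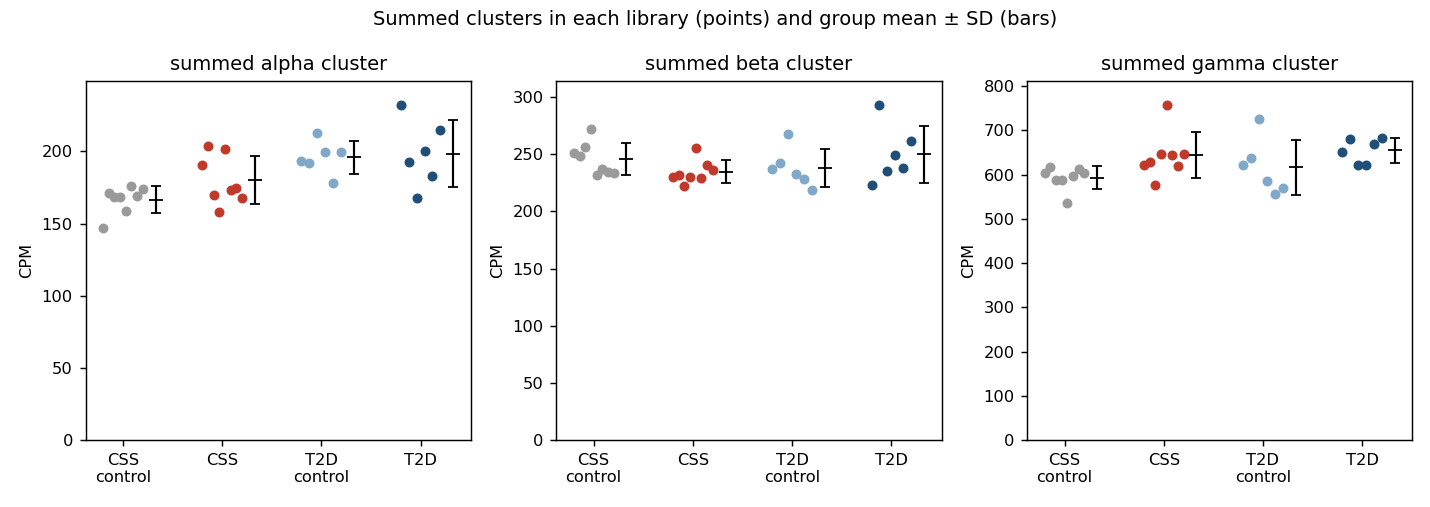
Summed CPM of the alpha, beta and gamma clusters in every library (points) with the mean ± SD of each group (bars, n = 8, 8, 6 and 6); the vertical axes start at 0. The gamma sums of 7 of 8 CSS libraries lie above all controls, whose highest is 616 CPM, and the groups overlap in alpha and beta.

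The comparison of T2D with T2D_control asked the same of the diabetes model. No protocadherin gene passed, 0 of 68, as for 0 of all 15054 genes (0.0%) in edgeR's quasi-likelihood test. DESeq2 called 4 genes, none of them a protocadherin. At an unadjusted p under 0.05 there were 3 members (4.41%, all higher), beside 5.84% of all genes (879, with 2.97% higher). Of the 68, 47 had a positive change, beside 50.8% of all genes, with 8 of 14 alpha, 14 of 21 beta, 19 of 22 gamma and 6 of 11 non-clustered genes.

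Pcdhb16 had the smallest p of the members, with 18.4, 20.0 and 22.9 CPM in T2D_control and 19.9, 24.9 and 29.6 in T2D (lowest, median and highest). In T2D 5 of 6 libraries were above every control, and the log2 change was 0.28 ± 0.10 (unadjusted p = 0.0115, adjusted p = 0.825). Pcdhgb6 had 24.1, 28.6 and 41.7 CPM in controls and 32.7, 36.7 and 38.1 in T2D, with 0.26 ± 0.12 (unadjusted p = 0.0412, adjusted p = 0.825). A single control was above all T2D libraries, and the other 5 were below them. Pcdh19 had 41.8, 51.9 and 65.2 CPM in controls and 51.9, 58.2 and 88.5 in T2D, with 0.29 ± 0.14 (unadjusted p = 0.0487, adjusted p = 0.825). T2D replicate 4 held the highest value, and without it the log2 change was 0.17.

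Pcdh20, a non-clustered gene, had the largest fitted change of the members in this cohort, 0.39 ± 0.20 (adjusted p = 0.825), with 22.1 to 57.6 CPM in T2D and 22.6 to 34.2 in controls, and 0.17 without T2D replicate 4. Pcdha6 had 0.31 ± 0.16 (adjusted p = 0.825), with 5 of 6 T2D libraries above every control, and 0.21 without T2D_control replicate 2. The genes that rose in CSS had -0.06 ± 0.10 (Pcdhac1) and 0.06 ± 0.14 (Pcdhgb2) here. The remaining C-type genes had 0.02 ± 0.11 (Pcdhac2), 0.13 ± 0.11 (Pcdhgc3), 0.20 ± 0.15 (Pcdhgc4) and -0.10 ± 0.12 (Pcdhgc5).

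Non-clustered genes other than Pcdh19 and Pcdh20 ranged from -0.11 ± 0.12 (Pcdh7) to 0.25 ± 0.15 (Pcdh18). Between them lay Pcdh8 with 0.22 ± 0.12, Pcdh11x with 0.16 ± 0.14, Pcdh17 with 0.07 ± 0.10, Pcdh15 with 0.00 ± 0.11 (its sign changed with upper quartile scaling), Pcdh10 with -0.03 ± 0.11, Pcdh1 with -0.06 ± 0.07 and Pcdh9 with -0.06 ± 0.09. Summed clusters had 0.02 ± 0.08 (alpha), 0.07 ± 0.07 (beta) and 0.09 ± 0.07 (gamma), with adjusted p-values of 0.977, 0.890 and 0.860. The beta value was 0.02 without T2D replicate 2 and 0.11 without T2D_control replicate 3, and the gamma value was 0.14 without the latter. All 6 T2D libraries were above the control mean in gamma, with 621 to 683 CPM beside 557 to 726. Microglial markers summed to 183 to 357 CPM in T2D and 221 to 365 in controls, with 0 of 11 called in edgeR. At an unadjusted p under 0.05 there were 4 of them, all lower, beside 5.84% of all genes in either direction. All 12 markers of striatal projection neurons had a positive change in T2D, with sums of 358 to 2267 and 459 to 1996 CPM, and 0 of 12 passed or had an unadjusted p under 0.05. Markers of the olfactory bulb, of which 5 of 8 were listed, summed to 10.4 to 127 CPM in T2D (median 19.3) and 9.94 to 16.5 in controls (median 13.1). Of these 5, 0 were called in edgeR and 3 were higher at an unadjusted p under 0.05, beside 2.97% of all genes. Their sums also spread in the CSS cohort, with 10.4 to 47.6 CPM in CSS and 9.40 to 108 in CSS_control. The part of these markers in the T2D values was not tested.

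Whether a member changed differently in both cohorts was tested as the CSS change minus the T2D change over the 14888 genes of both tables, which uses the same libraries as the comparisons above. No protocadherin gene passed, 0 of 68, beside 12 genes of all (0.0806%) in edgeR. DESeq2 called 130 genes and again 0 of 68 members. At an unadjusted p under 0.05 there were 6 members (8.82%), beside 12.4% of all genes. Pcdhb16 had the smallest p, with a difference of -0.36 ± 0.11 log2 units (adjusted p = 0.182), followed by Pcdhac1 with 0.47 ± 0.15 (adjusted p = 0.199), Pcdhb10 with -0.45 ± 0.17 (adjusted p = 0.273), Pcdh1 with 0.25 ± 0.11 (adjusted p = 0.332) and Pcdha12 with 0.46 ± 0.20 (adjusted p = 0.333). Pcdhgb2 had 0.28 ± 0.16 (95% interval -0.03 to 0.58, adjusted p = 0.475). Neither gene that rose in CSS passed this test, so neither is shown to differ between the cohorts. Pcdhac1 was among the 6 members with an unadjusted p under 0.05, and Pcdhgb2 was not. By class, 11 of 14 alpha, 6 of 21 beta, 15 of 22 gamma and 6 of 11 non-clustered genes had a positive difference, beside 48.9% of all genes.

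Spread between the libraries of a group is given as a coefficient of variation. In CSS_control its median was 16.9% over alpha, 11.5% over beta, 12.1% over gamma and 11.6% over non-clustered genes. In CSS the median was 16.9%, 11.6%, 12.8% and 14.4% in the same order. In T2D_control it was 16.3%, 13.6%, 14.2% and 13.02%, and in T2D 17.7%, 17.2%, 12.8% and 17.7%. Pcdhgc3 had the lowest of the gamma genes in CSS_control, 2.52%, and 14.8% in CSS. Pcdhac2 likewise had 6.08% in CSS_control and 6.31% in T2D_control, and 14.7% in CSS and 20.6% in T2D. The CSS value of Pcdhgc3 includes replicate 5 at 105 CPM, with the other CSS libraries at 65.6 to 84.5 CPM. In T2D, Pcdhac2 was at 89.7 CPM in replicate 1 and at 52.0 to 67.3 CPM in the others. Its T2D_control libraries were at 58.4 to 67.1 CPM. These are descriptions of 6 or 8 libraries each and were not tested.

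Genes that act on or with protocadherins were taken from 3 lists. Of 29 listed regulators of the clustered promoters and their chromatin, 2 fell in CSS and none rose, beside 2.42% lower and 2.11% higher over all genes. Smc1a, a subunit of the cohesin ring that loops cluster enhancers to promoters, fell by 0.26 ± 0.06 log2 units, from 103 ± 11.7 to 86.3 ± 5.53 CPM (SD, n = 8 each, edgeR adjusted p = 0.0305). Dnmt1, the maintenance DNA methyltransferase, fell by 0.26 ± 0.07, from 77.8 ± 8.73 to 64.9 ± 6.91 CPM (adjusted p = 0.0475). Pds5a, which regulates cohesin, had the next smallest p, with 0.17 ± 0.06 (adjusted p = 0.0791). The median log2 change of this list was -0.01, beside 0.01 over all genes.

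Of 35 listed partners and processing enzymes, 1 passed in CSS, beside 4.52% of all genes. Set, a nuclear protein that binds the cytoplasmic domain of Pcdh7, fell by 0.21 ± 0.06, from 174 ± 12.5 to 150 ± 12.3 CPM (SD, n = 8 each, edgeR adjusted p = 0.0384). Ptk2, the focal adhesion kinase that alpha and gamma tails inhibit, had 0.21 ± 0.06 (adjusted p = 0.0603) and Abi1, a subunit of the WAVE complex, -0.23 ± 0.07 (adjusted p = 0.0770).

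Of 33 other listed members of the cadherin superfamily, 3 rose in CSS and none fell, beside 2.11% higher and 2.42% lower over all genes. They were Cdh19 with 0.38 ± 0.10 (adjusted p = 0.0322), Celsr3, a cadherin of axon guidance, with 0.37 ± 0.09 (adjusted p = 0.0331), and Fat4, a large cadherin of planar cell polarity, with 0.36 ± 0.10 (adjusted p = 0.0449). The CSS and T2D changes of Cdh19 differed by 0.72 ± 0.15 log2 units (edgeR adjusted p = 0.0485), with 11.1 ± 1.35 CPM in CSS_control and 14.5 ± 2.16 in CSS, and 15.0 ± 1.81 in T2D_control and 11.7 ± 1.65 in T2D. No gene, Cdh19 included, was called in this difference with RIN as a covariate. The same held without 1 of several libraries, among them CSS replicates 1, 3, 5, 6 and 8 and CSS_control replicates 1 and 2. In T2D none of the 3 lists had a called gene in edgeR. At an unadjusted p under 0.05 there were 0 of 29 regulators, 3 of 35 partners and 6 of 33 cadherins, beside 5.84% of all genes.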

How the data were processed

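RNA from the frontal cortex of 28 mice was made into strand-marking, ribosome-depleted libraries, per the labels' protocols. The authors quantified genes with Salmon 1.1.0 on mm10, per the submitters' processing notes, and deposited a table of estimated counts per gene and library for each cohort. Whether strand or gene length entered the counts is not given in the sources used here. Depth was 12.1 to 37.5 M counts.

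Counts were rounded to whole numbers and fitted with edgeR 4.0.16 in R 4.3.3 (filterByExpr, TMM scaling, robust quasi-likelihood test, Benjamini-Hochberg adjustment over all genes, threshold 0.05), each cohort alone, then jointly for the difference of changes, and again with clusters summed. The fit was checked on simulated counts. CPM are TMM-scaled, and levels per kb use GENCODE M21 exon length. Alternatives were DESeq2 1.42.0, other scalings and filters, a covariate (RIN, age, title code number, 1 surrogate variable from sva 3.50.0), the replicate block and each library left out.

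Members and gene lists were chosen with earlier results of these data known. Named were genes past the threshold, the 5 of smallest p per comparison, the 3 highest and the lowest per class, C-type and non-clustered genes, and, of each other list, called genes and the 3 of smallest p. Other members named for a share, place or change were chosen after their values were seen. Each library is 1 mouse.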

Additional observations from a re-analysis of the deposited data

Results flagged for a closer look

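In each group, the highest and lowest library of every named member and summed cluster was compared with the others by Dixon's gap over range, at its 95% critical value. Of 124 groups checked, 8 had a library that stood apart, where chance gives about 1 in 20. Among non-clustered genes, Pcdh18 was at 13.8 CPM in CSS_control replicate 1 with the others at 8.31 to 10.0, and Pcdh19 was at 61.6 CPM in the same library with the others at 41.6 to 50.9. Pcdh20 was at 34.2 CPM in T2D_control replicate 2, with the others at 22.6 to 25.9.

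Among clustered genes, Pcdha6 was at 6.24 CPM in T2D_control replicate 2 (others 10.3 to 11.2), Pcdhb9 at 17.0 CPM in T2D replicate 6 (others 13.8 to 14.6) and Pcdhgb6 at 39.9 CPM in CSS replicate 5 (others 28.7 to 33.8). The gamma sum was at 758.0 CPM in CSS replicate 5 (others 577 to 647) and at 536.7 CPM in CSS_control replicate 5 (others 587 to 616).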

How the results depend on the processing

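Genes called in CSS numbered 683, with 1313 in DESeq2, 2 with the title code number as a factor and 222 to 794 when 1 library was left out (222 without CSS replicate 6). Protocadherin genes called numbered 2, with 5 in DESeq2 (Pcdha12, Pcdhgc4 and Pcdh19 in addition), 6 with 1 surrogate variable (also Pcdh17), 0 with the title code number and 0 to 3 with 1 library left out. In T2D DESeq2 called 4 genes in place of 0. The difference of changes had 12 called genes, with 130 in DESeq2, 0 with RIN as a covariate and 0 to 32 with 1 library left out. The alpha sum in T2D, 0.02, was -0.0122 with RIN and -0.0314 to 0.0638 with 1 library left out. With 1 library left out the other sums kept their sign, at 0.0226 to 0.110 (beta in T2D), 0.0598 to 0.140 (gamma in T2D), 0.0843 to 0.140 (alpha in CSS), -0.0851 to -0.0444 (beta in CSS) and 0.0792 to 0.140 (gamma in CSS). In none of these was the cause tested.

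Replicate numbers did not pair the samples: same-numbered deviations correlated at -0.164 to 0.334 in CSS (3 of 8 over 0.1, 2 of 8 best with their own number) and -0.0144 to 0.135 in T2D (1 of 6 and 0 of 6). With the replicate block, 1 protocadherin gene was called in CSS (Pcdhgb2), 32 genes in the difference, and Pcdhac2 in T2D had -0.00548.

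Signs turned for some uncalled changes near 0. In CSS, Pcdh10 had -0.000256 (DESeq2), -0.000285 (RLE), -0.00392 (upper quartile) and -0.0344 to 0.0432 with 1 library left out. Pcdh20 had -0.0927 and Pcdhac2 0.104 with the title code number, and Pcdha6 0.00055 with RIN. With 1 library left out, the range was -0.00318 to 0.118 for Pcdh20, -0.0618 to 0.0240 for Pcdh9, -0.254 to 0.000034 for Pcdha1, -0.0484 to 0.0358 for Pcdha6 and -0.0971 to 0.0106 for Pcdhac2. In T2D, 1 surrogate variable gave 0.0163 (Pcdh1), -0.0884 (Pcdh11x), -0.101 (Pcdh17), -0.0102 (Pcdh18), 0.0106 (Pcdh7), 0.0042 (Pcdh9), -0.0763 (Pcdhgb2) and -0.0232 (Pcdhgc4). RIN gave -0.0755 for Pcdhgb2. Pcdh15 had 0.000442 under the stricter filter on mean level and 0.0100 with upper quartile scaling. Left-out libraries gave -0.0946 to 0.0499 for Pcdh10, -0.0748 to 0.0493 for Pcdh15, -0.102 to 0.0723 for Pcdhac2 and -0.0239 to 0.159 for Pcdhgb2.

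Among alpha genes in CSS_control, Pcdha4, at 2.69 to 10.4 CPM, had the highest coefficient of variation, 42.2%, and Pcdha1, at 1.28 to 3.67 CPM, had 32.5%. Whether depth or shared bases set these was not tested.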

Other observations

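The cohorts differ in age and were deposited as separate tables, so levels between them cannot be told apart from these. Pcdhac1 stood at 8.58 ± 1.08 CPM in CSS_control, 11.5 ± 2.11 in CSS, 12.3 ± 1.25 in T2D_control and 11.8 ± 1.33 in T2D (SD, n = 8, 8, 6 and 6). Pcdha12 stood at 11.96 ± 2.54, 16.2 ± 2.64, 17.2 ± 1.98 and 16.9 ± 3.56 CPM in the same order. For both, CSS_control was the lowest of the 4 group means. The alpha sum was at 167 ± 9.44 CPM in CSS_control, 180 ± 16.7 in CSS, 196 ± 11.3 in T2D_control and 198 ± 22.9 in T2D. Its C-type share was 43.2% in CSS_control, 40.4% in CSS, 39.0% in T2D_control and 38.4% in T2D. Pcdhgb2 stood at 12.4 ± 1.46, 15.7 ± 1.90, 13.7 ± 2.92 and 14.3 ± 1.80 CPM. These levels across cohorts were not tested.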
